A study of Mus musculus with 12 samples.

Results

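Mitochondrially encoded RNAs are the transcripts of the circular mitochondrial genome, and were taken here as every gene of the count table whose symbol starts with mt-. A total of 37 of the 46517 genes in the table met this rule, 13 protein-coding genes, 2 rRNA genes and 22 tRNA genes. Of these 37, 16 passed the filter on low counts and were tested, namely the 13 protein-coding genes, mt-Rnr1, mt-Rnr2 and the tRNA gene mt-Ts1.

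RNA was sequenced from sorted LSK cells of mouse bone marrow, the lineage-negative, Sca1+, c-Kit+ fraction that holds hematopoietic stem and progenitor cells (HSPCs). The mice were 8 to 10 weeks old, and cells were collected 2 weeks after injection of poly(I:C), which induces the Mx1-Cre transgene in interferon-responsive cells, blood cells among them. Each of the 4 genotypes had 3 libraries from independent biological replicates. The study asked how loss of the histone acetyltransferase p300 (Ep300) changes gene expression in cells that lack the 5-methylcytosine dioxygenase Tet2 and in cells that do not. The group labelled p300KO_Tet2KO came from Mx1-Cre;Ep300 fl/fl;Tet2-/- mice, the p300KO group from Mx1-Cre;Ep300 fl/fl mice, the Tet2KO group from Ep300 fl/fl;Tet2-/- mice and the WT group from Ep300 fl/fl mice. The Tet2 deletion is in the germline, whereas Mx1-Cre acts after induction and not in blood cells alone. All 4 groups carried the floxed Ep300 allele and received poly(I:C). The methods give Mx1-Cre only to the p300-deleted genotypes, whereas the series' own description gives it to all 4, so the presence of Cre and the loss of p300 cannot be told apart in the p300 comparisons if the methods hold. All mice were on the C57BL/6 background, and both sexes were used.

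Total counts ran from 18773871 to 79573667 per library. CPM below are counts scaled to the same total in each library. Ep300 RNA was at 169, 177 and 181 CPM in the libraries labelled p300KO_Tet2KO and at 175, 236 and 189 CPM in p300KO, below the range of 271 to 359 CPM in the other 6 libraries. Tet2 RNA was at 131, 102 and 147 CPM in the libraries labelled p300KO_Tet2KO and at 58.2, 37.9 and 46.5 CPM in Tet2KO, against 114 to 142 CPM in WT. In p300KO, the other p300-deleted group, it was at 138, 184 and 166 CPM. In the group labelled p300KO_Tet2KO, 1 library thus lay below the WT range, 1 within it and 1 above it, and all 3 lay above those of Tet2KO, which goes against the label, so Tet2 loss in this group is given here only as labelled. Xist RNA, taken as a mark of female cells, was at 1.49 to 2.86 CPM in the WT libraries. It was at 6582, 3.04 and 8225 CPM in the libraries labelled p300KO_Tet2KO, 2.96, 2.20 and 5699 in p300KO and 3371, 4.05 and 6442 in Tet2KO. By this mark sex was not balanced between WT and the other groups, and its part in the comparisons was not tested. All 11 LSK genes looked up, among them Kit, Ly6a and Cd34, were above 1 CPM in every library. Of the other cell types that the gate could hold, the T cell gene Cd3e was at most 0.0567 CPM, but Cd4 was at 3.46 to 8.19 CPM and Cd5 at 0.269 to 2.41 CPM, while Cd79b of B cells was at 17.3 to 29.4 CPM and Lyz2 of granulocytes and monocytes at 89.01 to 119 CPM.

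The mitochondrial genome is transcribed from both strands into long precursors by the polymerase Polrmt with the factors Tfam and Tfb2m. The precursors are cut mostly at the tRNAs that lie between the other genes, which frees the 2 rRNAs of the mitochondrial ribosome and the mRNAs, and most mRNAs are then polyadenylated and stabilized by Lrpprc and Slirp. The 13 proteins are core subunits of respiratory complexes I, III and IV and of the ATP synthase (complex V), whose other subunits are made from nuclear genes. Hematopoietic stem cells are known for a low rate of respiration compared with the cells they give rise to.

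All 37 genes lie on the mitochondrial chromosome of the GRCm38 (mm10) annotation, 28 on its plus strand and 9 on its minus strand. Among the protein-coding genes mt-Nd6 alone is on the minus strand, at chrM:13552-14070, where its last 14 bases overlap the end of mt-Nd5. The setting for strand in the authors' counting is not given in the sources used here, so reads of mt-Nd6 and of RNA antisense to it cannot be told apart. The 3′ ends of both genes are shown because this overlap belongs to each of them, with the 14 shared bases in capitals, at chrM:13536-13565 for mt-Nd5 on the plus strand and at chrM:13552-13581 for mt-Nd6 on the minus strand.
mt-Nd5: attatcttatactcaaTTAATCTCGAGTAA
mt-Nd6: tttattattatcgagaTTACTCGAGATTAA
The genes mt-Atp8 and mt-Atp6 overlap by 43 bases on the same strand, shown in capitals at the 3′ end of mt-Atp8 (chrM:7917-7969, plus strand), an overlap shorter than a read.
mt-Atp8: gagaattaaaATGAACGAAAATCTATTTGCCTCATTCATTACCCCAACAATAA
The genes mt-Nd4l and mt-Nd4 share 7 bases in the same way.

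For 7 of the 13 protein-coding genes the nuclear genome holds a near-identical copy, and the copies decide how far a single level can be read. The 7 copies are annotated as unprocessed pseudogenes on the minus strand of chromosome 1 and lie next to each other within chr1:24611535-24616197 (GRCm38). Gm28661 matches mt-Co2 over 681 of its 681 bases, Gm10925 matches mt-Atp6 over 678 of 678, Gm28437 matches mt-Co3 over 783 of 783, Gm10222 matches mt-Nd4l over 294 of 294 and Gm28439 matches the first 876 bases of mt-Nd4 over all 876. The copies Gm28438 of mt-Nd3 (344 of 345 bases) and Gm29216 of the 3′ part of mt-Co1 (486 of 492 bases) differ by substitutions. The sequences around these substitutions are shown because these are the only bases at which the aligned copies differ from the mitochondrial genes, with the differing bases in capitals and positions counted from 1 at the 5′ end of the mitochondrial gene. They come from chrM:9459-9498 (plus strand) and chr1:24613080-24613119 (minus strand) for the first pair, and from chrM:6381-6420 (plus strand) and chr1:24616158-24616197 (minus strand) for the second.
mt-Nd3: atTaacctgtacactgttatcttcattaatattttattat
Gm28438: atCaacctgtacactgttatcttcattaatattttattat
mt-Co1: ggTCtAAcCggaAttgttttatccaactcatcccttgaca
Gm29216: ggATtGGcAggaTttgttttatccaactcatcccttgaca
The substitution in Gm28438 is T3C, and those in Gm29216 are T1056A, C1057T, A1059G, A1060G, C1062A and A1066T, all within the first 13 bases of that copy. The copy of mt-Co2 ends before the last 3 bases of the gene, which are in capitals in its 3′ end (chrM:7657-7696, plus strand), followed by the end of Gm28661 (chr1:24614885-24614921, minus strand).
mt-Co2: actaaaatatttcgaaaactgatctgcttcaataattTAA
Gm28661: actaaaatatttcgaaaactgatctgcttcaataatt
Of all windows of 100 bases, the read length, in a mitochondrial gene, the share found unchanged in another annotated transcript was 99.9% for mt-Co3, 99.5% for mt-Co2, 99.5% for mt-Atp6, 98.5% for mt-Nd4l and 97.6% for mt-Nd3. It was 60.8% for mt-Nd4, 30.8% for mt-Co1, 3.19% for mt-Nd2 and 0% for mt-Nd1, mt-Nd5, mt-Nd6, mt-Cytb, mt-Atp8 and both rRNAs.

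RSEM, which divides reads that fit several transcripts by an estimated abundance, gave most reads of some pairs to the nuclear copy. The median over the 12 libraries of the copy's share of a pair's counts was 95.8% for Gm28661 with mt-Co2, 91.98% for Gm28437 with mt-Co3, 69.9% for Gm10222 with mt-Nd4l and 61.5% for Gm10925 with mt-Atp6. It was 21.3% for Gm28438 with mt-Nd3, 0.654% for Gm28439 with mt-Nd4 and 0.442% for Gm29216 with mt-Co1. The share given to Gm28438 ran from 6.83% to 29.01% between libraries, and that given to Gm10222 from 47.2% to 77.9%. The levels of mt-Co2, mt-Co3, mt-Atp6, mt-Nd4l and mt-Nd3 as deposited are therefore uncertain, and levels with the copy added are given for them. A group of further copies on chromosome 2 held little, with 1.61 to 5.47 CPM for Gm13340 and less than that for Gm13341 and Gm13339.

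**Figure D1:**
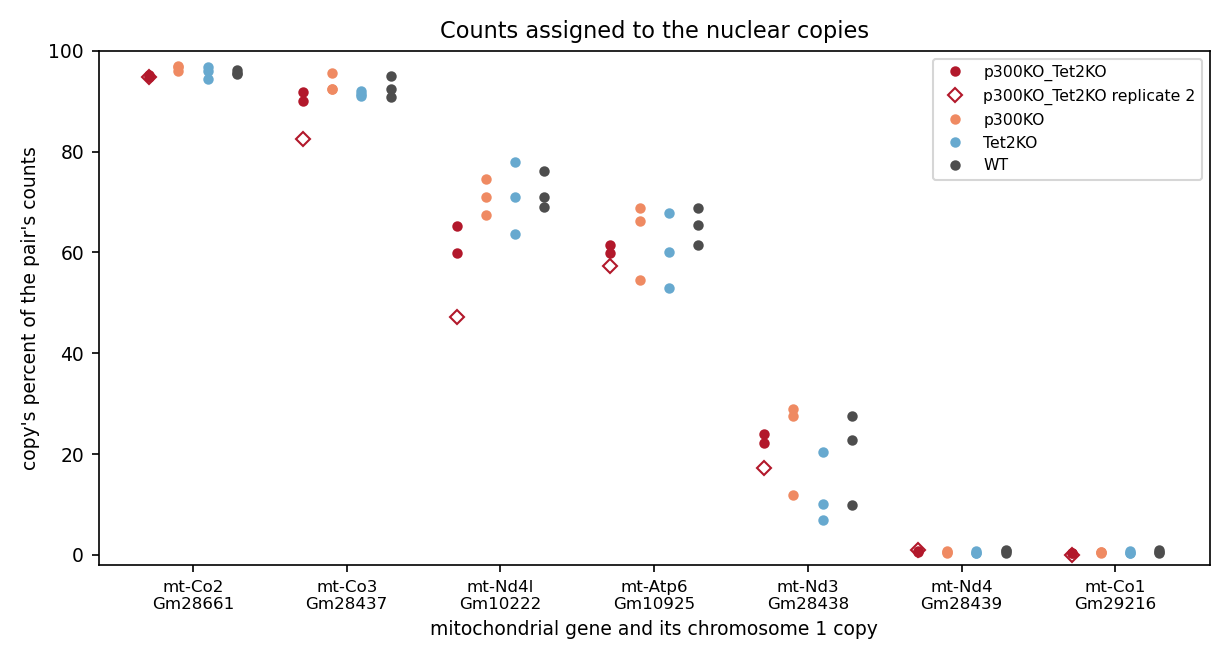
Percent of a pair's counts that was assigned to the chromosome 1 copy (y axis) for each of the 7 pairs (x axis), with 1 point per library coloured by genotype and an open diamond for p300KO_Tet2KO replicate 2. The copies of mt-Co2 and mt-Co3 took 82.6% or more of their pair in every library, and those of mt-Nd4 and mt-Co1 at most 1.01%.

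Mitochondrially encoded RNA took 1.28, 0.503 and 1.47% of the counts in the libraries labelled p300KO_Tet2KO, 1.53, 1.52 and 1.34% in the p300KO libraries, 1.45, 1.37 and 1.33% in the Tet2KO libraries and 1.33, 1.41 and 1.18% in the WT libraries. The share was therefore between 1.18% and 1.53% in 11 libraries and 0.503% in p300KO_Tet2KO replicate 2, whose share was 2.73 times below the median of the 11 others. These are bulk samples, in which fewer cells of a type and less RNA per cell cannot be told apart. As group means, the share was 1.08% ± 0.511 in the group labelled p300KO_Tet2KO, 1.46% ± 0.106 in p300KO, 1.38% ± 0.0637 in Tet2KO and 1.31% ± 0.115 in WT (SD, n = 3). Without replicate 2 the group labelled p300KO_Tet2KO averaged 1.37% ± 0.132 (SD, n = 2). The 7 nuclear copies added another 0.485, 0.205 and 0.544% in the libraries labelled p300KO_Tet2KO and 0.485% to 0.697% in the 11 libraries other than p300KO_Tet2KO replicate 2, so the copies were low in the same library.

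**Figure D2:**
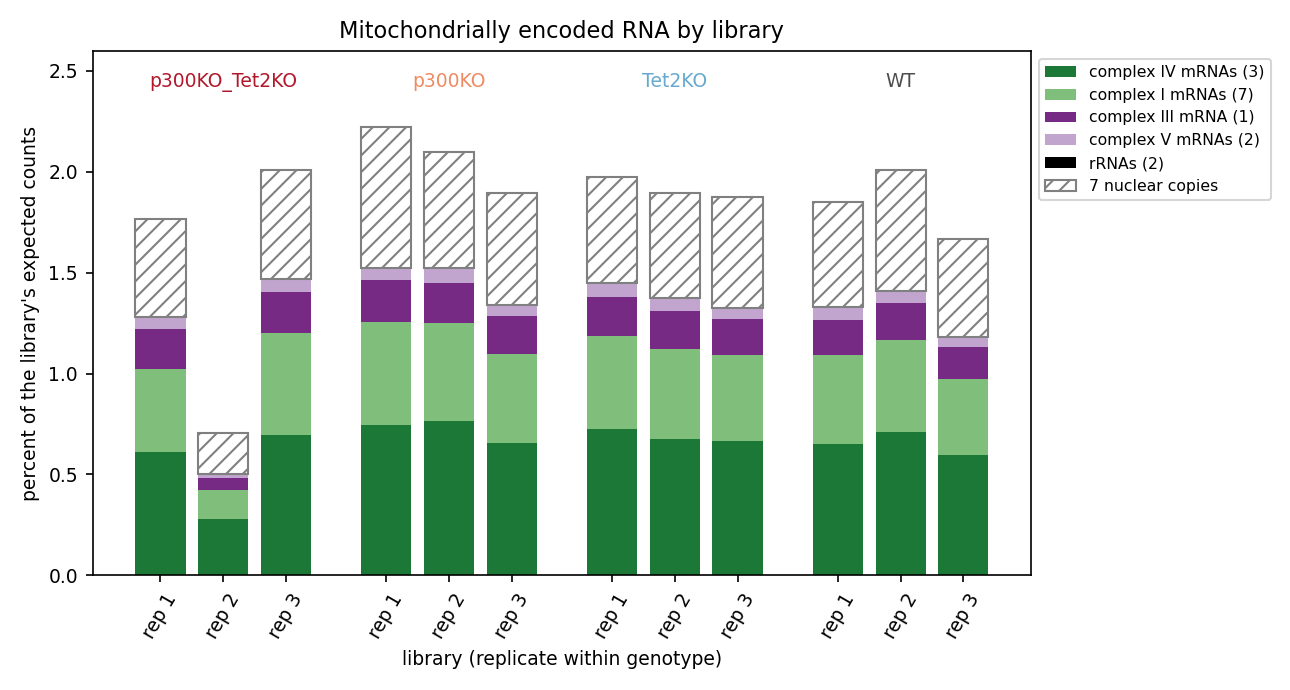
Percent of each library's expected counts (y axis) on mitochondrially encoded RNAs, stacked by respiratory complex, with the 7 nuclear copies hatched on top, for the 12 libraries grouped by genotype (x axis). The filled part of p300KO_Tet2KO replicate 2 reaches 0.503%, against 1.18% or more in every other library, and the rRNAs are too few to be visible.

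Relative to its length, RNA of complex IV was the most abundant. Levels per length are given in TMM-scaled CPM per kilobase, where TMM is edgeR's scaling between libraries, as the median of the 11 libraries other than p300KO_Tet2KO replicate 2 and with the copy added where there is one. They were 4280.4 for mt-Co1, 3456 for mt-Co2 and 2893 for mt-Co3, the 3 mitochondrial subunits of cytochrome c oxidase. The next were 2054 for mt-Atp6, 1653 for mt-Cytb, 1147 for mt-Nd1, 951 for mt-Nd4 and 783 for mt-Nd5. The lowest mRNA levels were 571 for mt-Nd3, 519 for mt-Nd4l, 329.9 for mt-Nd2, 268 for mt-Atp8 and 210.1 for mt-Nd6. Neighbours in this order had overlapping library ranges except at 3 steps within the mRNAs, below mt-Atp6, below mt-Cytb and below mt-Nd4l. The rRNAs stood far below every mRNA, at 21.7 for mt-Rnr1 and 12.6 for mt-Rnr2. The RNA had been depleted of rRNA and made into libraries with an mRNA-Seq kit, and the part of these steps in the rRNA levels was not tested.

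Among the complex IV genes mt-Co1, the catalytic subunit, was the most abundant member in every library. It was at 5700.5, 2575 and 6548 TMM-scaled CPM in the libraries labelled p300KO_Tet2KO, 7286, 7240.4 and 6357 in the p300KO libraries, 6755, 6590.3 and 6612 in the Tet2KO libraries and 6258, 6584 and 6067 in the WT libraries. All 3 libraries labelled p300KO_Tet2KO lay below all 3 of Tet2KO, and p300KO_Tet2KO replicate 2 lay far below every other library. For mt-Co2, which carries the copper center that accepts electrons from cytochrome c, the sum with Gm28661 was 2286, 1196 and 2364 TMM-scaled CPM in the libraries labelled p300KO_Tet2KO, 2973, 2470.2 and 2477 in the p300KO libraries, 2269, 2255 and 2499 in the Tet2KO libraries and 2258, 2545 and 2258 in the WT libraries. Its own level as deposited was 61.6 TMM-scaled CPM in p300KO_Tet2KO replicate 2 and 80.8 to 128 in the 11 others. For mt-Co3, the third core subunit of the complex, the sum with Gm28437 was 1884, 835 and 2263 TMM-scaled CPM in the libraries labelled p300KO_Tet2KO, 2861, 2497 and 2268 in the p300KO libraries, 2259.8, 2372 and 2312 in the Tet2KO libraries and 2181, 2361 and 2001 in the WT libraries. As deposited, mt-Co3 was at 145 TMM-scaled CPM in p300KO_Tet2KO replicate 2, inside the range of 101 to 219 of the 11 others, so that the low level of this library showed only in the sum. In both sums p300KO_Tet2KO replicate 2 was the lowest of the 12 libraries.

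The complex V genes encode subunits of the membrane part of the ATP synthase. For mt-Atp6, which forms part of the proton channel, the sum with Gm10925 was 1249.8, 301 and 1337 TMM-scaled CPM in the libraries labelled p300KO_Tet2KO, 1656, 1449 and 1421 in the p300KO libraries, 1317, 1385 and 1399 in the Tet2KO libraries and 1409, 1502 and 1274 in the WT libraries. Its own level was 500.4, 129 and 515 TMM-scaled CPM in the libraries labelled p300KO_Tet2KO, 517, 659 and 481 in the p300KO libraries, 619.6, 554 and 451 in the Tet2KO libraries and 543, 469.7 and 439.8 in the WT libraries. For mt-Atp8 the level was 47.6, 16.7 and 55.8 TMM-scaled CPM in the libraries labelled p300KO_Tet2KO, 63.5, 49.9 and 54.7 in the p300KO libraries, 56.9, 53.6 and 55.5 in the Tet2KO libraries and 54.2, 56.8 and 49.1 in the WT libraries. In each of these, p300KO_Tet2KO replicate 2 was the lowest library, and the other 11 differed by at most 1.499 times between the highest and the lowest.

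mt-Cytb, the cytochrome b subunit of complex III, was at 1941, 603 and 2001 TMM-scaled CPM in the libraries labelled p300KO_Tet2KO, 2089, 1935 and 1895 in the p300KO libraries, 1856, 1891 and 1891 in the Tet2KO libraries and 1768, 1795 and 1683 in the WT libraries. Leaving out p300KO_Tet2KO replicate 2, its levels spanned a factor of 1.24. All 3 p300KO libraries and all 3 Tet2KO libraries were above all 3 WT libraries.

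The 7 complex I genes encode membrane subunits of NADH dehydrogenase. mt-Nd1 was at 948, 255 and 1229 TMM-scaled CPM in the libraries labelled p300KO_Tet2KO, 1369, 1237 and 1117 in the p300KO libraries, 981, 1094 and 1059 in the Tet2KO libraries and 1126, 1097 and 1016 in the WT libraries. mt-Nd2 was at 309, 73.5 and 402 TMM-scaled CPM in the libraries labelled p300KO_Tet2KO, 414, 343 and 347 in the p300KO libraries, 324, 332 and 342 in the Tet2KO libraries and 330.2, 347 and 293 in the WT libraries. mt-Nd4 was at 1124, 316 and 1409 TMM-scaled CPM in the libraries labelled p300KO_Tet2KO, 1456, 1384 and 1286 in the p300KO libraries, 1327, 1372 and 1280.5 in the Tet2KO libraries and 1228, 1301 and 1075 in the WT libraries. In all 3 genes p300KO_Tet2KO replicate 2 was at most 0.294 of the lowest other library, while p300KO_Tet2KO replicate 3 was among the 3 highest libraries. mt-Nd5, the longest member, was at 1359, 614 and 1543 TMM-scaled CPM in the libraries labelled p300KO_Tet2KO, 1563, 1494 and 1429 in the p300KO libraries, 1467, 1409.9 and 1394 in the Tet2KO libraries and 1401, 1442 and 1258 in the WT libraries. For the short gene mt-Nd3, the sum with Gm28438 was 171, 44.1 and 277 TMM-scaled CPM in the libraries labelled p300KO_Tet2KO, 241, 233 and 194 in the p300KO libraries, 194, 216 and 188 in the Tet2KO libraries and 200.1, 195 and 199 in the WT libraries. For mt-Nd4l, the sum with Gm10222 was 122, 52.3 and 164 TMM-scaled CPM in the libraries labelled p300KO_Tet2KO, 168, 138 and 153 in the p300KO libraries, 165, 165 and 167 in the Tet2KO libraries and 135, 154 and 129.7 in the WT libraries. In each of these as well, p300KO_Tet2KO replicate 2 was below the other 11 libraries. As deposited, mt-Nd3 was at 36.5 TMM-scaled CPM in that library and at 133 to 210.3 in the others, and mt-Nd4l at 27.6 in that library and at 36.9 to 59.9 in the others. mt-Nd6 was the exception among the mRNAs. It was at 92.3, 88.4 and 147 TMM-scaled CPM in the libraries labelled p300KO_Tet2KO, 109, 92.9 and 109.6 in the p300KO libraries, 128, 109 and 115 in the Tet2KO libraries and 82.3, 110.0 and 93.6 in the WT libraries, and its level in p300KO_Tet2KO replicate 2 lay inside the range of the 11 others, 82.3 to 147.

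The rRNA of the small subunit of the mitochondrial ribosome, mt-Rnr1, was at 17.1, 18.5 and 16.7 TMM-scaled CPM in the libraries labelled p300KO_Tet2KO, 17.99, 20.7 and 30.3 in the p300KO libraries, 21.9, 20.7 and 18.3 in the Tet2KO libraries and 13.8, 23.5 and 27.3 in the WT libraries. The rRNA of the large subunit, mt-Rnr2, was at 16.8, 24.2 and 19.1 TMM-scaled CPM in the libraries labelled p300KO_Tet2KO, 17.1, 17.9 and 28.02 in the p300KO libraries, 23.03, 20.3 and 19.9 in the Tet2KO libraries and 15.5, 25.4 and 30.2 in the WT libraries. For both, p300KO_Tet2KO replicate 2 lay inside the range of the other libraries, and WT replicate 1 was the lowest.

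The 22 tRNA genes were nearly without counts. Together they had 8 to 50 counts per library, 9 of them were at 0 in every library, and another 11 never exceeded 5 counts. A count of 0 allows a level of up to 0.0377 to 0.1598 CPM, the worth of 3 counts in the deepest and the shallowest library, for counting error only. The tRNAs are 59 to 75 bases long and the reads 100 bases. The members that reached more than 5 counts in some library were mt-Tl1, a leucine tRNA with at most 6 counts, and mt-Ts1, a serine tRNA with 3 to 40 counts. Their sequences are shown as the tRNAs with the most counts, for mt-Ts1 at chrM:6870-6938 (minus strand), where the capitals mark the 3 bases that overlap mt-Co1 on the opposite strand, and for mt-Tl1 at chrM:2676-2750 (plus strand), with no capitals.
mt-Ts1: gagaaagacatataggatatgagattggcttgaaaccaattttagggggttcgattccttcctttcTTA
mt-Tl1: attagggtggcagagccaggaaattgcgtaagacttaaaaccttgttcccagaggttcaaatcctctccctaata
mt-Ts1 was at 0.365, 0.325 and 0.531 TMM-scaled CPM in the libraries labelled p300KO_Tet2KO, 0.232, 0.0976 and 0.352 in the p300KO libraries, 0.692, 0.479 and 0.133 in the Tet2KO libraries and 0.264, 0.415 and 0.669 in the WT libraries, and all 4 groups overlapped.

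**Figure D3:**
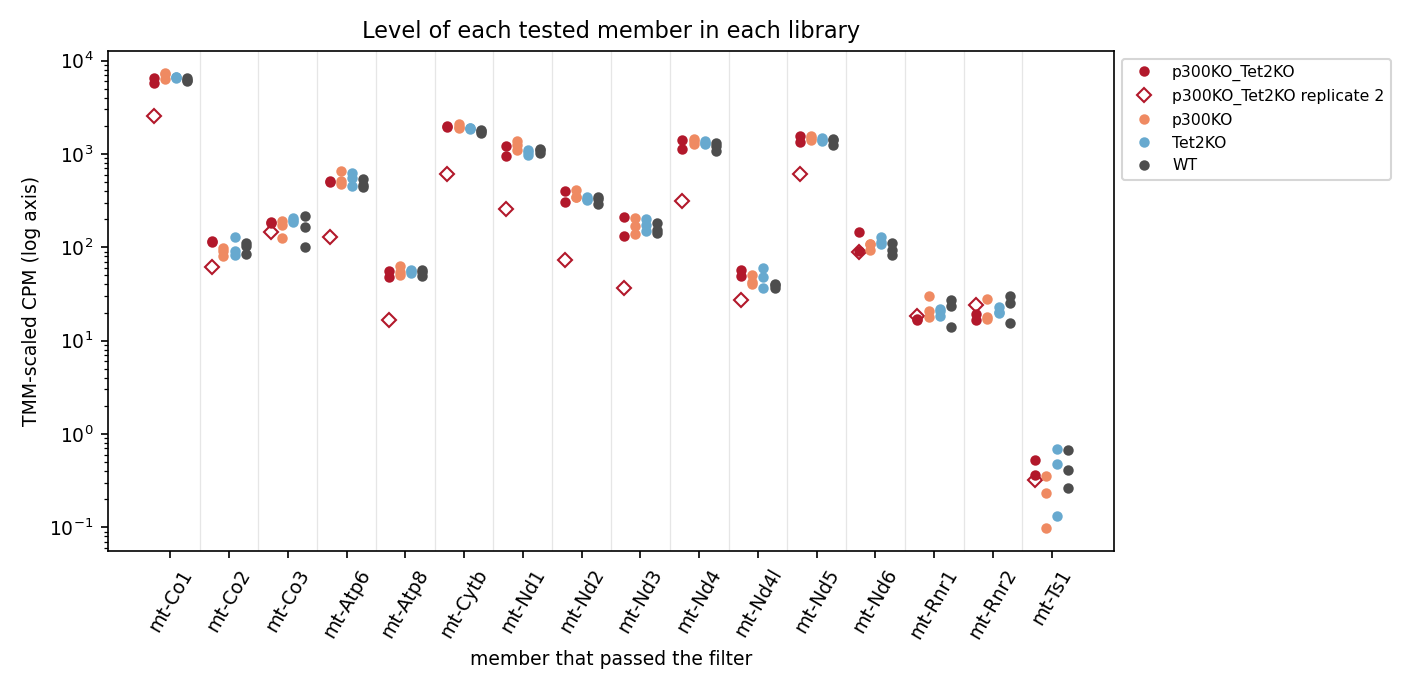
TMM-scaled CPM (y axis, log scale) of the 16 tested members (x axis) in each library, coloured by genotype, with an open diamond for p300KO_Tet2KO replicate 2. The diamond stands below all other points for 11 members, such as mt-Nd1 at 255 against 948 or more, and among them for mt-Co3, mt-Nd6, mt-Rnr1, mt-Rnr2 and mt-Ts1.

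The low share of p300KO_Tet2KO replicate 2 was not shared evenly by the members. With the copies added, the level in this library relative to the median of the 11 others was 0.215 for mt-Nd2, 0.215 for mt-Atp6, 0.222 for mt-Nd3, 0.233 for mt-Nd1 and 0.244 for mt-Nd4. It was 0.305 for mt-Atp8, 0.319 for mt-Cytb, 0.339 for mt-Nd4l, 0.368 for mt-Co3, 0.3896 for mt-Co1, 0.4301 for mt-Nd5 and 0.506 for mt-Co2. The ratio was 0.811 for mt-Nd6, 0.895 for mt-Rnr1 and 1.21 for mt-Rnr2. The 12 mRNAs of the plus strand were thus lower by a factor of 1.98 to 4.66. The single mRNA of the minus strand was lower by a factor of 1.23. The rRNAs, which are on the plus strand as well, were within the range of the other libraries. That range spanned 2.19 times for mt-Rnr1 and 1.95 times for mt-Rnr2 in RNA depleted of rRNA. These 2 ratios therefore cannot show whether mitochondrial rRNA fell in this library. The 3 complex IV mRNAs, at 0.368 to 0.506, had higher ratios than 5 of the 6 complex I mRNAs of the plus strand, which were at 0.215 to 0.4301. This was also visible in the makeup of the RNA, where in this library mt-Co2 with its copy took 17.04% of the 15 members and their copies, against 11.7% to 13.3% in the others, and mt-Atp6 with its copy 4.29%, against 6.75% to 7.67%. Across the 12 plus-strand mRNAs of this single library, the ratio had a Spearman rho of 0.57 with GC content, 0.46 with the level per kilobase and 0.26 with length, and over all 13 mRNAs, with mt-Nd6 included, it was 0.32, 0.15 and 0.11 with the same measures, given as a description because genes of 1 library share its depth and scaling.

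**Figure D4:**
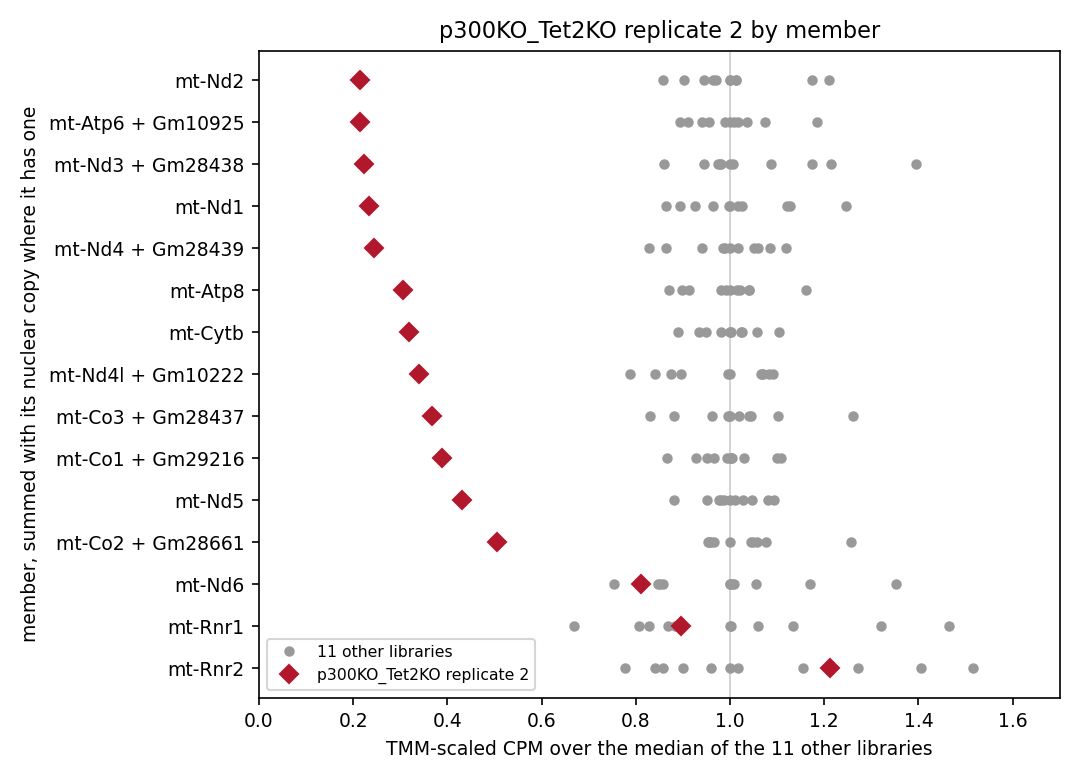
Level of each mRNA and rRNA, summed with its nuclear copy where there is one (y axis), divided by the median of the 11 libraries other than p300KO_Tet2KO replicate 2 (x axis, linear), with gray points for those 11 libraries and a red diamond for p300KO_Tet2KO replicate 2. The diamond lies at 0.215 to 0.506 and apart from every gray point for 12 mRNAs, and among the gray points for mt-Nd6 and the rRNAs.

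Few other genes stood this far below the other libraries in p300KO_Tet2KO replicate 2, and genes far above them were not counted. Over the tested genes, members included, this library differed from replicates 1 and 3 of its group by a chi-square per degree of freedom of 94.4 and 86.4. The other pairs of replicates within a group were at 23.6 to 70.3, a measure that also depends on depth. Of 9974 tested genes with a mean of at least 10 TMM-scaled CPM, 20 were in this library below 0.5 times the lowest of the 11 others, of which 9 were mitochondrially encoded (of 15 members at this level), 4 were nuclear copies (of 6) and 7 were other genes, such as Il18r1, Thbs1 and Zbed6, named after their values were seen. In each of the other libraries 1 to 7 genes met the same criterion and 0 of them were members or copies. This 0 gives no contrast, because p300KO_Tet2KO replicate 2 was then among the 11 others. A member or copy low in that library would have had to fall below 0.5 times its level there. The library's total of 67109557 counts was among the 5 highest, and the other 4 of these had shares of 1.33% to 1.52%. Its Xist RNA was at 3.04 CPM, against 6582 and 8225 CPM in the other replicates of its group, while the 6 other libraries under 10 CPM of Xist had shares of 1.18% to 1.53%. Nuclear-encoded respiratory subunits took 0.608% of its counts, against 0.526% to 0.6796% in the others. Mitochondrial ribosomal proteins took 0.231%, against 0.1997% to 0.251%. Gm26917 took 1.87%, against 0.474% to 3.08%. Lars2, the mitochondrial leucyl-tRNA synthetase, was at 95.1 CPM, above the 48.8 to 87.2 CPM of the others. Of the 11 LSK genes, this library had the highest Kit and Procr and the lowest Cd48 and Ptprc of the 12 libraries, with Kit at 1065 CPM and Cd48 at 62.6 CPM, while their sum, 3179 CPM, was inside the range of 2579.8 to 3501 CPM. The summed markers of 5 other cell types were neither the lowest nor the highest of the 12 libraries. They were 33.1 CPM in a range of 19.6 to 94.01 for B cells, 8.36 in 4.08 to 10.5 for T cells and 50.3 in 4.22 to 59.2 for erythroid cells. They were 177 in 158 to 299 for granulocytes and monocytes and 201 in 100.1 to 278 for megakaryocytes. Of the erythroid genes, Hba-a2 was the highest of the 12 libraries at 7.17 CPM and Hbb-bs was at 20.4 CPM in a range of 0.416 to 24.2. The megakaryocyte sum was mostly Itga2b, at 193 CPM, while Ppbp was the lowest of the 12 libraries at 1.48 CPM (up to 46.1) and Pf4 was at 6.497 CPM in a range of 5.72 to 40.99. The part of these measures in the low share was not tested.

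In cells labelled as lacking Tet2, p300KO_Tet2KO compared with Tet2KO, 0 of the 16 tested members were called, where 3.9% of all tested genes were. Calls were made at an adjusted p under 0.05 (edgeR quasi-likelihood test, Benjamini-Hochberg over all 17842 tested genes). At an unadjusted p under 0.05 the count was 0 of 16 by edgeR, 0 by DESeq2 and 1 by limma-voom, where 16.5%, 16.5% and 18.9% of all tested genes were under it by the same tools. The log2 fold changes of the genes as deposited, p300KO_Tet2KO over Tet2KO, were below 0 for all 16 members and ran from -0.51 to -0.05, with a median of -0.30, against 0.02 over all tested genes. The direction rested on p300KO_Tet2KO replicate 2, since without this library the median was -0.02 and 9 of the 16 were below 0. As deposited, the lowest adjusted p belonged to mt-Co1, which averaged 4941 ± 2092 TMM-scaled CPM in the group labelled p300KO_Tet2KO and 6653 ± 89.7 in Tet2KO (SD, n = 3 each; -0.43 on the log2 scale with an SE of 0.26, adjusted p = 0.448 by edgeR). Without replicate 2 its log2 fold change was -0.12 (SE 0.12, edgeR adjusted p = 0.734). With the genes as deposited, mt-Co1 was the 1 member of 16 whose groups did not overlap, lying lower in p300KO_Tet2KO, which held for 10.1% of all tested genes. With the copies added, mt-Nd4l did not overlap either, by a narrow gap, and it then had the lowest p of the members (-0.56 on the log2 scale with an SE of 0.28, unadjusted p = 0.0674, adjusted p = 0.349 by edgeR). mt-Nd4 averaged 949.9 ± 567 TMM-scaled CPM in the group labelled p300KO_Tet2KO and 1326 ± 45.8 in Tet2KO (-0.48 on the log2 scale with an SE of 0.36, adjusted p = 0.561 by edgeR). The 95% interval of the mt-Nd4 change was -1.26 to 0.30, which includes changes in either direction.

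In cells with intact Tet2, p300KO compared with WT, 0 of the 16 members were called, where 3.91% of all tested genes were. At an unadjusted p under 0.05 the count was 0 by edgeR, 0 by DESeq2 and 0 by limma-voom, against 16.2%, 16.4% and 18.1% of all tested genes. The log2 fold changes were above 0 for 13 of the 16, with a median of 0.13, against 0.01 over all tested genes. mt-Cytb averaged 1973 ± 102 TMM-scaled CPM in p300KO and 1749 ± 58.2 in WT (SD, n = 3 each; 0.17 on the log2 scale with an SE of 0.31, adjusted p = 0.844 by edgeR) and was the 1 member whose groups did not overlap, with or without the copies added, lying higher in p300KO as did 10.6% of all tested genes. mt-Nd1 averaged 1241 ± 126 in p300KO and 1079.8 ± 57.5 in WT (0.20 on the log2 scale with an SE of 0.37, adjusted p = 0.852 by edgeR). The estimate farthest from 0 was that of the tRNA mt-Ts1, at -1.05 with a 95% interval of -2.44 to 0.35 on 3 to 40 counts per library. In this fit all libraries share 1 estimate of a gene's spread, and the members' spread was wider with p300KO_Tet2KO replicate 2 in the fit. The median SE over the 16 members was 0.28 with this library and 0.15 without it, where the medians over all tested genes were 0.18 and 0.17. Without it 0 of the 16 members were called in p300KO vs WT either, and the lowest adjusted p was 0.337, that of mt-Cytb.

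Loss of Tet2 alone, Tet2KO compared with WT, gave 0 called members of 16, where 0.633% of all tested genes were called. At an unadjusted p under 0.05 the count was 0 by edgeR, 0 by DESeq2 and 0 by limma-voom, against 12.9%, 13.4% and 14.9% of all tested genes. The log2 fold changes had a median of 0.09, against 0.00 over all tested genes, and 13 of the 16 were above 0. mt-Nd6 averaged 117 ± 9.51 TMM-scaled CPM in Tet2KO and 95.3 ± 13.9 in WT (0.30 on the log2 scale with an SE of 0.17, adjusted p = 0.486 by edgeR), the lowest adjusted p of the members. As deposited, mt-Co1 and mt-Cytb were the 2 members whose groups did not overlap, with mt-Co1 at 6653 ± 89.7 in Tet2KO and 6303 ± 261 in WT, and such non-overlap with Tet2KO higher held for 11% of all tested genes. With the copies added, mt-Co1 overlapped and the 2 members were mt-Cytb and mt-Nd4l.

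For the group labelled p300KO_Tet2KO, 0 of the 16 members were called compared with p300KO, where 0.56% of all tested genes were, and 0 compared with WT, where 8.43% were. At an unadjusted p under 0.05 the counts compared with p300KO were 0 by edgeR, 1 by DESeq2 and 2 by limma-voom, and compared with WT 0, 0 and 1 by the same tools. Of all tested genes, 10%, 10.3% and 11.4% were under that threshold compared with p300KO, and 20.8%, 20.5% and 22.2% compared with WT. The median log2 fold change was -0.39 compared with p300KO and -0.26 compared with WT, against 0.01 and 0.02 over all tested genes. Without replicate 2 the medians were -0.05 and 0.09, so that the sign compared with WT turned. mt-Co1 averaged 4941 ± 2092 TMM-scaled CPM in the group labelled p300KO_Tet2KO and 6961 ± 523 in p300KO (-0.49 on the log2 scale with an SE of 0.26, adjusted p = 0.564 by edgeR), with the lowest unadjusted p of any member as deposited in the 6 comparisons, 0.0754. As deposited, the groups overlapped for all 16 members in both comparisons, while 14.2% of all tested genes did not overlap compared with p300KO and 27.5% compared with WT. With the copies added, mt-Co2, mt-Co3 and mt-Atp6 lay lower in all 3 libraries labelled p300KO_Tet2KO than in all 3 of p300KO, as did 6.51% of all tested genes, and no member was without overlap compared with WT. The smallest p of these was that of mt-Co3 (-0.61 on the log2 scale with an SE of 0.26, unadjusted p = 0.037, adjusted p = 0.456 by edgeR). No difference in the p300 effect between Tet2 labels was called for any member, with 0 of 16 in the interaction (p300KO_Tet2KO minus Tet2KO, minus p300KO minus WT) and 0% of all tested genes called. At an unadjusted p under 0.05 the interaction had 0 members by edgeR, 0 by DESeq2 and 0 by limma-voom, against 7.11%, 7.56% and 9.49% of all tested genes. The median over the members was -0.45 with all libraries and -0.10 without p300KO_Tet2KO replicate 2. Without p300KO_Tet2KO replicate 2, 0 of the 16 members were called in any of the 6 comparisons, where 2.65% of all tested genes were in p300KO_Tet2KO vs Tet2KO, 4.49% in p300KO vs WT, 0.719% in Tet2KO vs WT, 0.326% in p300KO_Tet2KO vs p300KO and 6.78% in p300KO_Tet2KO vs WT. Without p300KO_Tet2KO replicate 3, which leaves replicate 2 as 1 of 2 libraries, 0 members were called, while 21 of 96 member results over the 6 comparisons (21.9%) had an unadjusted p under 0.05, against 12.9% of the results of all tested genes. Of the 7 nuclear copies, 0 were called in any comparison, and the smallest unadjusted p was 0.0344, for Gm28437 in p300KO_Tet2KO vs p300KO (-0.68 on the log2 scale with an SE of 0.29, adjusted p = 0.449 by edgeR). The comparisons share libraries and are not independent of each other.

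**Figure D5:**
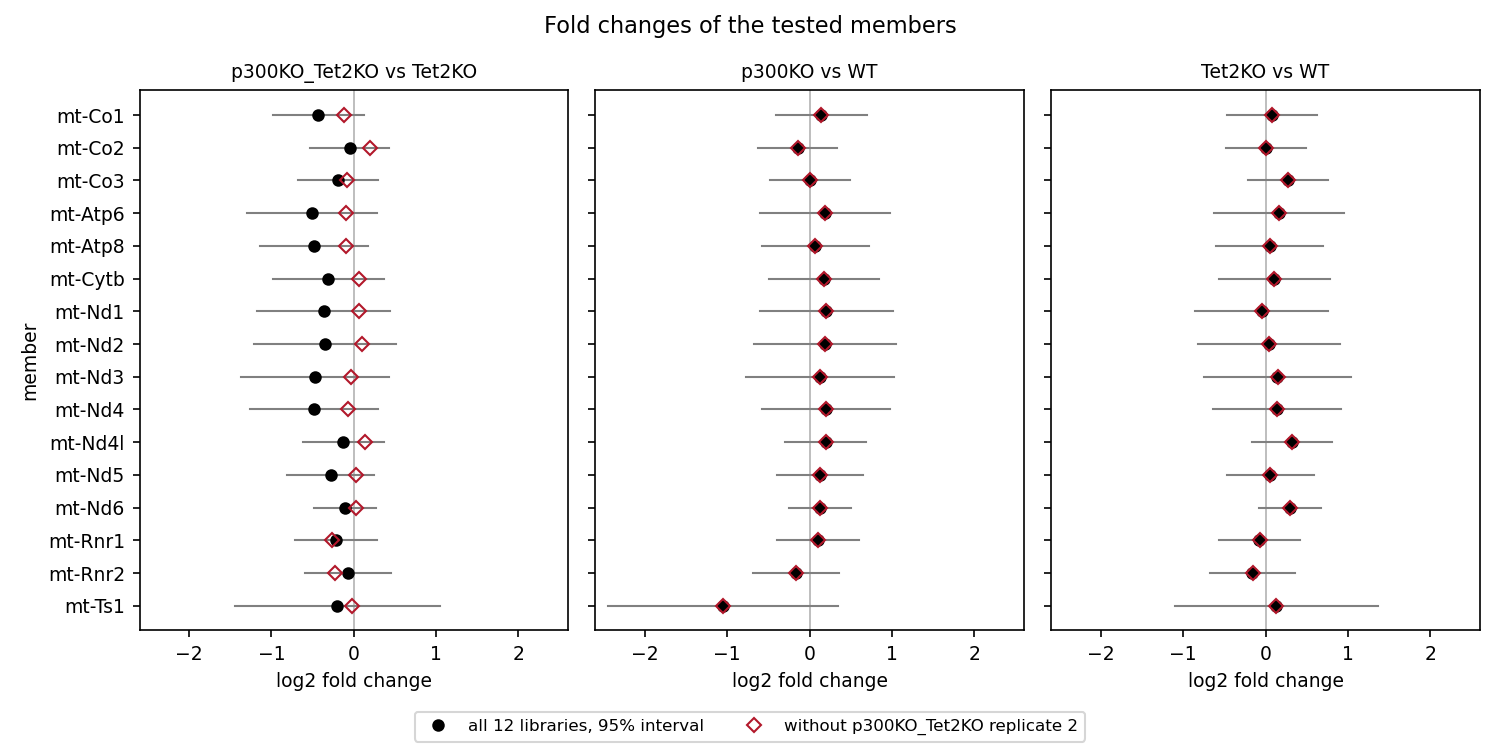
Log2 fold change (x axis) of the 16 tested members (y axis) in 3 comparisons, with black points and lines for the edgeR estimate and its 95% interval over all 12 libraries, and open red diamonds for the estimate without p300KO_Tet2KO replicate 2. All 16 intervals include 0 in each panel, and in p300KO_Tet2KO vs Tet2KO the median moves to -0.02, against -0.30 with all libraries.

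The summed share of counts was tested as a single value per library. The difference in means was -0.30 percentage points for p300KO_Tet2KO minus Tet2KO (exact two-sided permutation test, p = 0.5), 0.16 for p300KO minus WT (p = 0.2, exact) and 0.07 for Tet2KO minus WT (p = 0.5, exact). It was -0.38 for p300KO_Tet2KO minus p300KO (p = 0.2, exact) and -0.22 for p300KO_Tet2KO minus WT (p = 0.8, exact). With 3 libraries against 3, this test cannot give a p below 0.1. Averaged over both Tet2 labels, p300-deleted minus p300-intact libraries differed by -0.07 percentage points (exact permutation test within Tet2 label, p = 0.885), and averaged over both p300 labels, Tet2KO-labelled minus Tet2-intact libraries differed by -0.15 (p = 0.495, exact). These 2 tests can reach 0.005. The Benjamini-Hochberg adjusted p over the 7 tests was 0.7 to 0.885. Without p300KO_Tet2KO replicate 2, p300KO_Tet2KO minus Tet2KO was -0.00971, p300KO_Tet2KO minus WT was 0.0652 and p300-deleted minus p300-intact was 0.073 percentage points, so the last 2 changed sign.

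The nuclear genes that make and handle mitochondrial RNA had 1 call in the 6 comparisons. Of all tested genes, 3.9% were called for p300KO_Tet2KO over Tet2KO, 3.91% for p300KO over WT, 0.633% for Tet2KO over WT, 0.56% for p300KO_Tet2KO over p300KO, 8.43% for p300KO_Tet2KO over WT and 0% for the interaction. Of the 23 tested genes of mitochondrial transcription and mtDNA maintenance, 0 rose and 0 fell in p300KO_Tet2KO vs Tet2KO, with a median log2 fold change of 0.06. Their counts were also 0 and 0 in p300KO vs WT, in Tet2KO vs WT, in p300KO_Tet2KO vs p300KO and in the interaction. In p300KO_Tet2KO vs WT 0 rose and 1 fell, Gabpb1, a subunit of the transcription factor GABP that binds promoters of nuclear genes for respiration. Gabpb1 was at 89.7, 90.1 and 92.96 TMM-scaled CPM in the libraries labelled p300KO_Tet2KO, against 118, 105 and 125 in WT (-0.35 on the log2 scale with an SE of 0.09, edgeR adjusted p = 0.0355). The groups did not overlap, which held for 27.5% of all tested genes in either direction. In p300KO Gabpb1 was at 96.3, 101 and 97.0, also below all WT libraries, but was not called (-0.24 on the log2 scale with an SE of 0.09, edgeR adjusted p = 0.211). In Tet2KO it was at 104.6, 116 and 90.1. The call in p300KO_Tet2KO vs WT was lost without any 1 of 6 libraries. The edgeR adjusted p was 0.118 without WT replicate 1, 0.111 without WT replicate 3 and 0.0542 without p300KO replicate 3. It was 0.0968, 0.0879 and 0.0905 without p300KO_Tet2KO replicate 1, 2 and 3. Among these genes the smallest p in p300KO_Tet2KO vs Tet2KO was that of Top1mt, the mitochondrial DNA topoisomerase, which averaged 14.2 ± 2.55 TMM-scaled CPM in the group labelled p300KO_Tet2KO and 10.2 ± 2.07 in Tet2KO (SD, n = 3 each; 0.48 on the log2 scale with an SE of 0.18, edgeR adjusted p = 0.18).

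Among the 25 tested genes of mitochondrial RNA processing, stability and decay, 0 rose and 0 fell in each of the 6 comparisons. Elac2, the nuclease that cuts the 3′ ends of mitochondrial tRNAs, had the smallest p of these in p300KO_Tet2KO vs Tet2KO, at 49.4 ± 6.01 TMM-scaled CPM in the group labelled p300KO_Tet2KO and 42.1 ± 3.55 in Tet2KO (0.23 on the log2 scale with an SE of 0.11, edgeR adjusted p = 0.308). The 76 tested nuclear subunits of the respiratory complexes had 0 called in each of the 6 comparisons as well, with medians of 0.09 in p300KO_Tet2KO vs Tet2KO, 0.07 in p300KO vs WT and -0.12 in Tet2KO vs WT. Ndufa2, a complex I subunit, had their smallest p in p300KO_Tet2KO vs Tet2KO, at 31.8 ± 2.66 TMM-scaled CPM in the group labelled p300KO_Tet2KO and 25.6 ± 3.88 in Tet2KO (0.32 on the log2 scale with an SE of 0.11, edgeR adjusted p = 0.158). The 77 mitochondrial ribosomal protein genes had 0 called in each comparison, with medians of 0.11, 0.02 and -0.14 in the same 3 comparisons. Mrps24, a protein of the small ribosomal subunit, had their smallest p in p300KO_Tet2KO vs Tet2KO, at 26.1 ± 1.06 TMM-scaled CPM in the group labelled p300KO_Tet2KO and 20.4 ± 2.45 in Tet2KO (0.36 on the log2 scale with an SE of 0.12, edgeR adjusted p = 0.147). The median over all tested genes was 0.02, 0.01 and 0.00 there.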

How the data were processed

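RNA from 12 libraries (4 genotypes, 3 independent biological replicates each) had been depleted of rRNA and sequenced as paired 100 bp reads. Per the labels, the authors aligned reads to mm10 with STAR 2.6.0c and deposited RSEM 1.3.0 expected counts per gene. The Gencode release and the strand setting are not given in the sources used here. Expected counts were rounded to whole numbers. Counting precision follows from the 18773871 to 79573667 counts per library. The limits given for tRNAs without counts cover counting error only. The intervals of the fold changes rest on the standard errors of the edgeR fit, which include the spread between libraries.

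Genes passing filterByExpr were fitted over all 12 libraries with 1 mean per group, using edgeR 4.0.16 (R 4.3.3; TMM scaling, quasi-likelihood test, Benjamini-Hochberg adjusted p under 0.05). The study used DESeq2 after spike-in correction, and the table held 0 spike-in rows. Standard errors were computed from the fold change and the F statistic (log2 value over root F). Shares of counts were compared by exact permutation tests. The fitting steps were first tested on simulated data. Alternatives covered scaling, filtering, DESeq2 1.42.0, limma 3.58.1 (voom), the libraries in the fit, a replicate block, nuclear copies and leaving out each library. Coordinates and sequences came from Gencode vM21 (GRCm38), which held all 37 members and 27555 of the 46517 gene identifiers by version.

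The 13 mRNAs, the 2 rRNAs and each tRNA that passed the filter are given with values in every library, and the other tRNAs by range. From the nuclear lists, called genes and the gene with the smallest p in p300KO_Tet2KO vs Tet2KO were named. The members and lists were chosen with earlier results of these data known.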

Additional observations from a re-analysis of the deposited data

How the results depend on the processing

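The count of called members was 0 of the tested members in all 6 comparisons under each of the 23 alternative fits (5 comparisons in the fit of only the libraries compared, which has no interaction), and the lowest adjusted p of a member in any of them was 0.154, for mt-Nd4l in p300KO_Tet2KO vs WT without p300KO_Tet2KO replicate 2 (edgeR). At an unadjusted p under 0.05, edgeR gave 0 member results over the 6 comparisons, DESeq2 1 and limma-voom 4. Leaving out each library in turn moved the members' median log2 fold change over -0.55 to -0.02 in p300KO_Tet2KO vs Tet2KO, 0.11 to 0.17 in p300KO vs WT, 0.05 to 0.13 in Tet2KO vs WT, -0.62 to -0.05 in p300KO_Tet2KO vs p300KO, -0.47 to 0.09 in p300KO_Tet2KO vs WT and -0.70 to -0.10 in the interaction. For the 4 of these that involve p300KO_Tet2KO, the value nearest to 0, or of the other sign, came without its replicate 2, and the value farthest from 0 without its replicate 3. For the difference in share, the ranges in percentage points were -0.492 to -0.00971, 0.0932 to 0.217, 0.0125 to 0.126, -0.572 to -0.0904 and -0.417 to 0.0652 in the first 5 comparisons, -0.168 to 0.073 for p300-deleted minus p300-intact and -0.249 to -0.00773 for Tet2KO-labelled minus Tet2-intact. The signs of p300KO_Tet2KO minus WT (0.0652, exact permutation p = 0.5) and of p300-deleted minus p300-intact (0.073, exact permutation p = 0.285) turned without p300KO_Tet2KO replicate 2. Under the settings that keep all libraries, no median and no share difference changed sign. Deviations from the group mean correlated weakly between samples with the same replicate number, with r from -0.152 to 0.135 over 18 pairs. The r was over 0.1 in 5 pairs, most of them between libraries of replicate 3. A replicate block gave 0 called members and a median of -0.35 in p300KO_Tet2KO vs Tet2KO. The total without rRNA left out the 2 rRNA members and Gm26917, and Gm42418 was not used here. Adding the copies to their genes was chosen after seeing the data. With 3 libraries a group and 1 library far from the rest, changes of the size of the members' intervals were not detectable, and tRNAs at 0 to 6 counts could not be compared.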
